A study of Homo sapiens with 18 samples.

Results

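The genes described here are 10 genes of branched-chain amino acid breakdown, chosen by name from 19974 protein-coding genes of the autosomes and the X chromosome. For each, every peak overlapping its GRCh38 gene record or the 10 kb on either side was collected. The peaks came from ChIP-seq, in which DNA bound to a protein or histone mark is pulled down with an antibody and sequenced, of the triple-negative breast cancer cell line MDA-MB-231. KDM2B, MYC, H3K4me3, H2AK119ub and H3K27me3 were profiled in the parental line, and H3K27ac in the same line carrying an empty vector, so every overlap with H3K27ac is one between cell stocks. The 18 libraries made 9 groups of 2, with ATF4 libraries, not analysed here, and inputs of both cell stocks among them. Each of the 6 targets has 1 deposited peak list that does not resolve its libraries, so no value below has a replicate error and no p-value is given. The fold printed for a peak is the value the authors' peak caller gave its summit relative to background, and it ranks peaks only within its own list. Sequencing depth is unknown because read counts were not part of the lists, and a missing peak says only that none passed a q-value of 0.05.

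Leucine, isoleucine and valine share their first breakdown steps. BCAT1 in the cytosol and BCAT2 in mitochondria move the amino group to 2-oxoglutarate, which yields glutamate and branched-chain keto acids. The branched-chain keto acid dehydrogenase complex, with BCKDHA and BCKDHB as its E1 subunits and DBT as its E2 core, then commits the keto acids to oxidation. BCKDK phosphorylates the complex and switches it off, and PPM1K removes that phosphate. IVD and the MCCC1 and MCCC2 subunits of methylcrotonyl-CoA carboxylase act next on the leucine branch. Mouse Bcat1, under its older name Eca39, was isolated as a gene controlled by MYC, and BCAT1 is expressed in many tumours. KDM2B reads unmethylated CpG DNA through its CXXC domain and recruits a variant Polycomb complex that ubiquitinates H2AK119. H3K27me3 is the mark of PRC2, while H3K4me3 and H3K27ac stand at active promoters.

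As a check of the cell type, H3K4me3, H3K27ac and MYC were at the starts of VIM, CD44, AXL and EGFR, all high in mesenchymal triple-negative lines. The luminal genes CDH1, PGR and ESR1 had no MYC and no H3K27ac at a start, and neither did the leukocyte gene PTPRC. The leukocyte genes CD3E and SPI1 had MYC of fold 3.64 and 3.46 and no H3K27ac. H3K4me3 was absent from CDH1 and PTPRC but present at ESR1 (16.2), PGR (13.9), CD3E (11.1) and SPI1 (7.43), below the 44.7 to 61 of the 4 mesenchymal genes. GATA3 and EPCAM, also listed as luminal, had both, with H3K27ac folds of 5.63 and 10.6, below the 61.5 to 104 of the 4 mesenchymal genes.

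The promoters of BCAT1, MCCC1 and MCCC2 are shown because they were the members with a CACGTG in the first promoter listed. Each run is the RefSeq sequence in build GRCh38.p14 from 250 bases before the listed start to 50 after it, in the direction of the gene. Capitals mark CACGTG, the core element bound by MYC with MAX, and TGATGNAA, the core of the element bound by ATF4 with its partners. Both strands were searched and no 2 matches overlapped.
BCAT1 (chr12:24949052-24949351, minus strand): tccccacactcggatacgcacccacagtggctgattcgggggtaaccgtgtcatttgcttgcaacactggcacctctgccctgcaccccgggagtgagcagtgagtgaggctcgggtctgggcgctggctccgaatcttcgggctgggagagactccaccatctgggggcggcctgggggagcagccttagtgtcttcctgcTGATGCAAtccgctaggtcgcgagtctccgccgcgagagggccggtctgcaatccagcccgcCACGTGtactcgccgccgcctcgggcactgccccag
MCCC1 (chr3:183099447-183099746, minus strand): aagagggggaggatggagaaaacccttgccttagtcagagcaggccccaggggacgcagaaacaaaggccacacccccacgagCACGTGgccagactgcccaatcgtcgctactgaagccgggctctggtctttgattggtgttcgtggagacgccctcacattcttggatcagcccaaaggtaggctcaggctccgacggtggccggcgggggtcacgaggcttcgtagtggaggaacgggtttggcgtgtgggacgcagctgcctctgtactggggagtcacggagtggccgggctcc
MCCC2 (chr5:71587090-71587389, plus strand): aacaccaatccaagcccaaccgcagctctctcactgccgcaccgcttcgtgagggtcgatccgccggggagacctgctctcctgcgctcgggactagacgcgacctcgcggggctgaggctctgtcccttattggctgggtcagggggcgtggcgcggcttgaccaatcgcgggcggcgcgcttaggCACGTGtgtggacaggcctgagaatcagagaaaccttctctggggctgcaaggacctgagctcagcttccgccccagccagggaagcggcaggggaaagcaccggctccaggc
BCAT1 held both motifs, TGATGCAA starting 48 bases before the listed start and CACGTG 14 bases after it. CACGTG was in 8.87% of 15813 promoters of protein-coding genes, TGATGNAA in 2.54% and the pair together in 0.158%, or 25 promoters. The CACGTG of MCCC1 began 167 bases and that of MCCC2 63 bases before the start. The centre of the BCAT1 element lay 32 bp from the MYC summit, against 191 bp at MCCC2 and 371 bp at MCCC1. In BCKDHA, BCKDHB, DBT, BCKDK, PPM1K and IVD neither motif was present in this window, which says nothing of the DNA beyond it. BCAT2 was described from both ends of its record.

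MYC, H3K4me3 and H3K27ac were at the start of all 10 genes, and KDM2B was at 6. A target was counted at the start if any base of 1 of its peaks lay within 1 kb of a start that RefSeq lists for the gene. Over all protein-coding genes MYC was at 64.1%, H3K4me3 at 68.9%, H3K27ac at 63.4% and KDM2B at 47.8%. All 3 of MYC, H3K4me3 and H3K27ac together were at 60.4% of genes, and KDM2B was at 76.0% of those. The 4 targets coincided at 6 of the 10 members, against 45.9% of all genes. The 6 were both transaminases, BCAT1 and BCAT2, both regulators of the dehydrogenase, BCKDK and PPM1K, and both carboxylase subunits, MCCC1 and MCCC2. The 4 without KDM2B at the start were BCKDHA, BCKDHB and DBT, which encode the catalytic body of the dehydrogenase, and IVD.

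**Figure D1:**
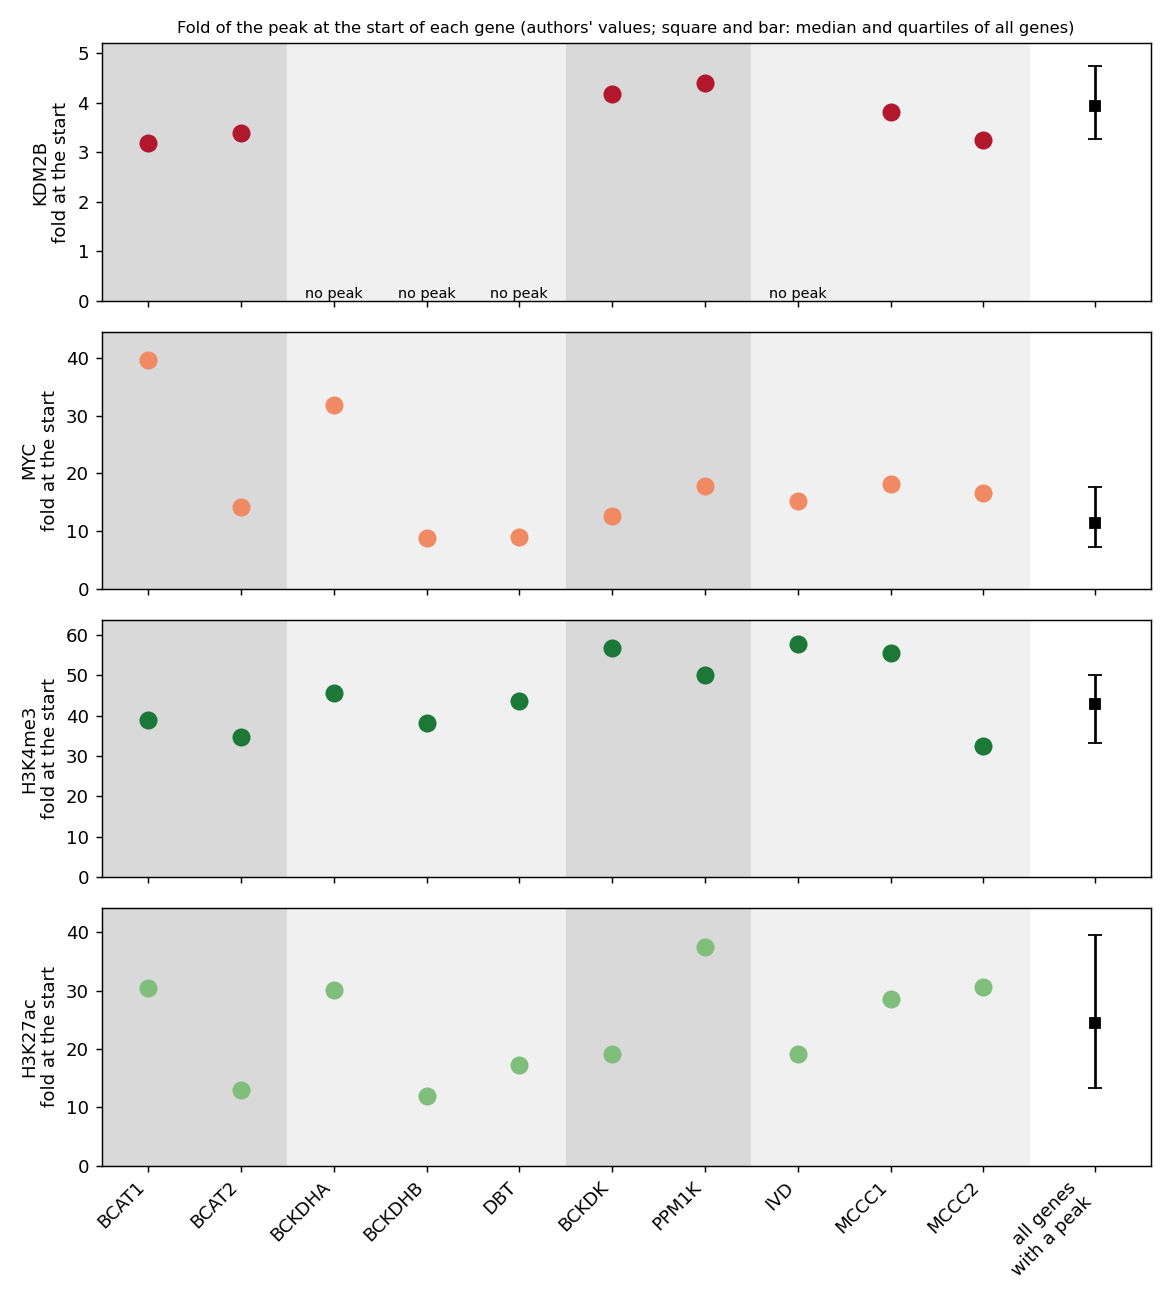
Fold of the strongest peak reaching within 1 kb of a start (either record end for BCAT2), one panel per target, with genes along the x axis in order of pathway step (shading separates transamination, dehydrogenase, its regulators and the leucine branch). The black square and bar give the median and quartiles over all genes that have a peak; KDM2B points lie between 3.20 and 4.41 and are missing for BCKDHA, BCKDHB, DBT and IVD, while BCAT1 tops the MYC panel at 39.6.

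The KDM2B peaks of the members were of middling to low rank. Their folds ran from 3.20 to 4.41 with a median of 3.60, against a median of 3.93 (quartiles 3.28 and 4.74) over the 9547 genes with KDM2B at a start. PPM1K had the highest fold, 4.41, above 65.5% of those genes, and BCKDK followed at 4.17, above 57.6%. MCCC1 had 3.82, BCAT2 3.39, MCCC2 3.25 and BCAT1 3.20. The BCAT1 peak was also the weakest by q-value, with a −log10 q of 4, and it was the member lost when peaks were held to q under 1e-5. All 11 KDM2B peaks found in the 10 loci overlapped a MYC, an H3K4me3 and an H3K27ac peak, and 1 of them, in the flank of IVD, an H2AK119ub peak. Counted by gene rather than by peak, 9177 of the 9547 genes with KDM2B at a start also had MYC, H3K4me3 and H3K27ac there.

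The members' MYC peaks stood mostly above the median gene. Their folds had a median of 15.9, against 11.4 over the 12809 genes with MYC at a start. BCAT1 reached 39.6, above 97.6% of those genes, in a peak 2505 bp wide. BCKDHA, at 31.8, was above 94.5% of them, in a peak that also covered the start of the neighbouring gene EXOSC5. The other 8 lay between 8.85 at BCKDHB and 18.2 at MCCC1, which overlaps the quartiles of 7.26 and 17.6 over all genes. The 2 lowest, BCKDHB at 8.85 and DBT at 9.08, were dehydrogenase subunit genes without KDM2B.

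Members with and without KDM2B overlapped in their MYC, H3K4me3 and H3K27ac folds. MYC folds were 12.6 to 39.6 in the 6 with KDM2B and 8.85 to 31.8 in the 4 without. The 31.8 is that of the peak BCKDHA shares with EXOSC5. H3K4me3 folds were 32.6 to 56.6 with KDM2B and 38.2 to 57.7 without it, and IVD, which lacks KDM2B at its start, had the highest H3K4me3 fold of the 10. For H3K27ac the folds were 12.9 to 37.4 with KDM2B and 11.9 to 30.1 without. The 30.1 is that of a BCKDHA peak that also reached within 1 kb of the start of EXOSC5. The 12.9 is the BCAT2 peak reaching its lower record end. At the upper end, where its KDM2B peak lies, BCAT2 had H3K27ac of 8.63, below the lowest member without KDM2B. That peak also reached within 1 kb of the neighbouring gene HSD17B14. Over all genes with MYC, H3K4me3 and H3K27ac at a start, the median MYC fold was 13.2 with KDM2B and 8.04 without, the median H3K4me3 fold 46.5 with it and 36.2 without, and the median H3K27ac fold 28.2 with it and 18.4 without.

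The next promoters are shown for their CpG content, CpG being the dinucleotide that the CXXC domain of KDM2B binds. PPM1K had the highest KDM2B fold of the members. BCKDHA, like BCKDHB and DBT, had no KDM2B peak anywhere in its locus, and it held the fewest CpG among them. Capitals mark each CpG.
PPM1K (chr4:88284512-88284811, minus strand): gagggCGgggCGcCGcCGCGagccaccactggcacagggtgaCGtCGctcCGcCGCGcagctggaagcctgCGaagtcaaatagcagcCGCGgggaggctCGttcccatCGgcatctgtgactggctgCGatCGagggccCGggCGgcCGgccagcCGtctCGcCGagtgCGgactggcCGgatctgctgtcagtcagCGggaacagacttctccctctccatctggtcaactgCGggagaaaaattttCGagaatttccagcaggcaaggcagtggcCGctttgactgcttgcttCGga
BCKDHA (chr19:41397568-41397867, plus strand): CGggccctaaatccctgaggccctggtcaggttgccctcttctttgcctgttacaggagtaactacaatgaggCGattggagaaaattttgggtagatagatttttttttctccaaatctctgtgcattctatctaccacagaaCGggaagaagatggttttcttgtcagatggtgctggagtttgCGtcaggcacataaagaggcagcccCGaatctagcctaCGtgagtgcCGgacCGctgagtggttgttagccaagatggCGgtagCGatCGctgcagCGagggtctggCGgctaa
PPM1K held 30 CpG in these 300 bases and BCKDHA 13, against a median of 22 over all 15813 promoters. The KDM2B peak of PPM1K, at 88283703 to 88284418, lay wholly downstream of the bases shown. Among the other members with KDM2B, the first listed promoter held 28 CpG in BCKDK, 25 in MCCC2, 23 in BCAT1 and 19 in MCCC1. In BCKDK, MCCC2, BCAT1 and MCCC1 the KDM2B summit lay downstream of the 300 bases counted. Without KDM2B, BCKDHB had 27, IVD 23 and DBT 14. By first listed promoter, the ranges of members with KDM2B (19 to 30) and without it (13 to 27) overlapped. BCAT2, which has KDM2B, had no listed promoter. Other listed promoters of MCCC1 held 27 and 14 CpG, and the KDM2B summit lay in the promoter with 27. Over all genes with MYC, H3K4me3 and H3K27ac the median was 28.5 with KDM2B and 22 without. Within BCAT1, the promoters of the 3 listed starts further inside the gene held 35, 38 and 13 CpG and had no KDM2B peak, and that of the other listed start beside the KDM2B peak held 11.

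Where KDM2B and MYC met, their summits lay close together and, in the 5 members with a listed start, downstream of the first start listed. The 2 summits were 10 bp apart at MCCC2, 18 bp at MCCC1 and at PPM1K, 63 bp at BCAT1, 71 bp at BCAT2 and 72 bp at BCKDK. Over the 9481 genes with both, the median distance was 138 bp, and 37.0% were no further apart than the 72 bp of BCKDK. The KDM2B summit lay downstream of the first listed start in all 5 members with both a KDM2B peak and a listed start, by 82 bp at BCKDK, 111 bp at BCAT1, 141 bp at MCCC2, 224 bp at MCCC1 and 597 bp at PPM1K. Over all genes with a listed start and KDM2B there, it lay downstream in 75.2%. The KDM2B and MYC summits of MCCC1 lay upstream of another of its listed starts, at 183099243. At PPM1K all 4 summits stood between 579 and 597 bp into the gene, and the start of PPM1K-DT, a non-coding gene on the other strand, lay 369 bp from that of PPM1K. The MYC summit was downstream in 8 of 9 members, with a median of 154 bp, and over all genes in 66.3%. The exception was BCKDHA, whose MYC summit lay 490 bp before its start, just inside the neighbouring record of EXOSC5, a subunit of the RNA exosome.

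H3K4me3 and H3K27ac separated the members differently. H3K4me3 folds ran from 32.6 at MCCC2 to 57.7 at IVD, with a median of 44.6 against 42.9 over all genes with this mark at a start. BCKDK at 56.6 and MCCC1 at 55.4 came next, so the leucine branch held both the highest and the lowest value. H3K27ac folds had a median of 23.9 against 24.5 over all genes. PPM1K at 37.4, MCCC2 at 30.6, BCAT1 at 30.4 and BCKDHA at 30.1 were highest and BCKDHB at 11.9 and BCAT2 at 12.9 lowest. The BCAT2 value is that of a peak reaching its lower record end, with its summit 4292 bp inside the record. At the upper end, which carries KDM2B, BCAT2 had 8.63, below BCKDHB, in a peak that also reached within 1 kb of HSD17B14. BCKDHB and BCAT2 were the members lost for H3K27ac when each list was held to its 15000 peaks of highest fold.

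**Figure D2:**
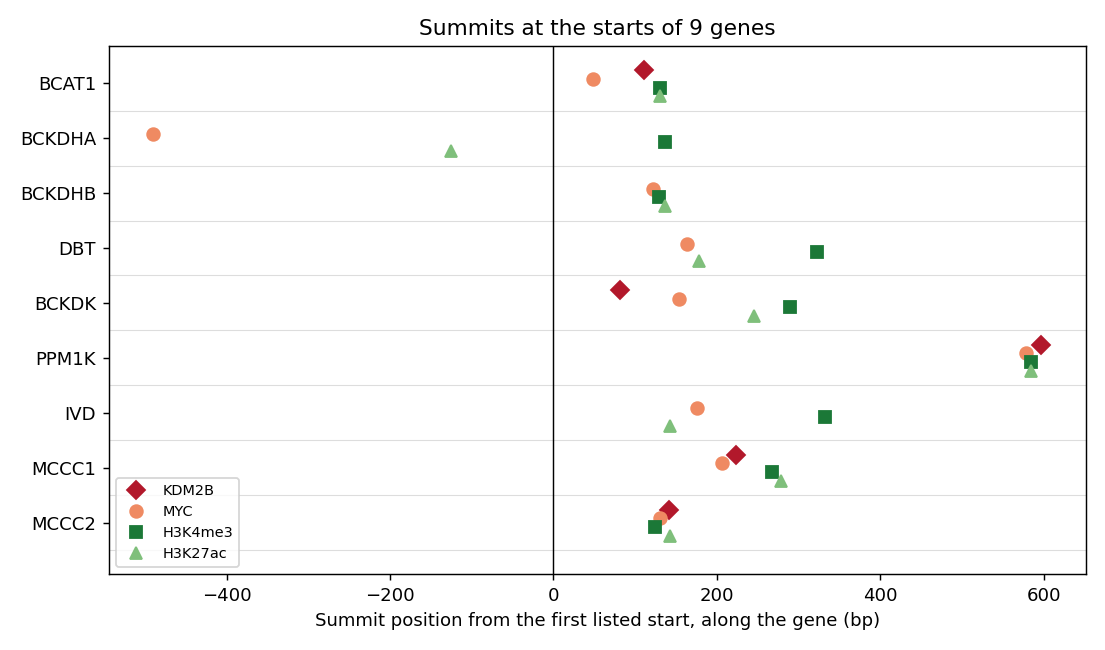
Position of the summit of each target's strongest peak at the start, in bp along the gene from the first listed start (vertical line), for the 9 members with a listed start. KDM2B and MYC symbols sit within 72 bp of each other wherever both are present, at 82 to 597 bp for KDM2B, and the MYC summit of BCKDHA is 490 bp upstream.

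BCAT1 (chromosome 12, 24810024 to 24949340, minus strand) had its strongest signals at the upstream one of its 2 groups of listed starts. There the MYC peak spanned 24947098 to 24949602, the H3K4me3 peak 24945162 to 24950441 with a fold of 38.8, and the H3K27ac peak 24945351 to 24950727 with a fold of 30.4. KDM2B covered 186 bp at 24948929 to 24949114. A non-coding gene, BCAT1-DT, starts 62 bp away on the other strand, so the signals cannot be given to 1 of them. The other listed starts of BCAT1, from 46034 to 46879 bp further in, had no MYC, KDM2B or H3K4me3 peak and only H3K27ac of fold 2.30 and 2.23, also within 1 kb of an end of LOC124902898, a protein-coding record inside BCAT1. A second site lay 84.7 kb into the gene, with MYC of fold 3.45 at 24864291 to 24864823 inside an H3K27ac peak of fold 10.5 and 3521 bp wide. H3K4me3 there was weak, at 2.85 and 2.95, and no KDM2B peak was present. Neither Polycomb mark had a peak in the whole 159317 bp of the BCAT1 locus.

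BCAT2 (chromosome 19, 48795064 to 48811029) had peaks at both ends of its record. At the upper end KDM2B had a fold of 3.39, MYC 14.2, H3K4me3 34.6 and H3K27ac 8.63. The lower end had MYC of 5.37, H3K4me3 of 14.1 and no KDM2B. An H3K27ac peak of fold 12.9 and 7213 bp also covered the lower end, but its summit was 4292 bp inside the record. MYC and H3K4me3 were higher at the upper end, which also carried the KDM2B. A further KDM2B peak of fold 2.61 lay within 1 kb of the end of HSD17B14, whose record begins 1989 bp above that of BCAT2. The upper MYC, H3K4me3 and H3K27ac peaks also reached within 1 kb of that gene, and the H3K27ac summit lay just outside the BCAT2 record. H2AK119ub of fold 1.75 overlapped the lower window, with a −log10 q of 1.43, close to the limit of the list.

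The 3 genes of the dehydrogenase body differed in their surroundings. BCKDHA (chromosome 19, 41397818 to 41425002, plus strand) starts 459 bp from the start of EXOSC5 on the other strand, and its MYC peak at 41396196 to 41398344 and its H3K4me3 peak of 10588 bp covered both starts. Its H3K27ac peak of fold 30.1 covered only the BCKDHA start but reached within 1 kb of that of EXOSC5. Inside BCKDHA, 11.9 kb from the start, was a weaker site with MYC of 5.37, H3K27ac of 7.49 and H3K4me3 of 5.15. A MYC peak of fold 3.01 at the edge of the locus lay near the end of DMAC2. DBT (chromosome 1, 100186919 to 100249834, minus strand) had the fewest peaks of the 10, with 1 MYC, 1 H3K4me3 and 1 H3K27ac peak, all at the start, in 82916 bp. BCKDHB (chromosome 6, 80106610 to 80466676, plus strand) is longer than 97.1% of protein-coding genes. It had 1 MYC peak, at its start, and 13 H3K27ac peaks. Of these, 11 lay away from the start, with folds of 2.81 to 7.82, and none of the 11 overlapped MYC or KDM2B. Of these 11, 7 lay between 318.2 and 348.1 kb into the gene, the highest being the last.

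Both regulator genes carried all 4 targets. BCKDK (chromosome 16, 31108386 to 31117640, plus strand) lay under 1 H3K4me3 peak of 15566 bp with a fold of 56.6, which ran over the whole record into KAT8, an acetyltransferase gene that begins 24 bp beyond it. MYC was at both ends of that stretch, with 12.6 at the start of BCKDK and 15 at KAT8, but KDM2B was only at BCKDK. A separate site 2.44 kb before BCKDK had KDM2B of 2.87, MYC of 6.87, H3K4me3 of 8.85 and H3K27ac of 3.57, with no end of another protein-coding gene within 1 kb. Beside it, 3 H2AK119ub peaks of fold 2.11 to 3.72 covered bases 31104107 to 31105596 in part. PPM1K (chromosome 4, 88257620 to 88284561, minus strand) had a second KDM2B peak of fold 2.66 at 1.40 kb into the gene, within the same MYC peak of 2818 bp. Its H3K27ac fold of 37.4 was the highest of the members, and no Polycomb mark was present in its locus.

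On the leucine branch, IVD (chromosome 15, 40405795 to 40435947, plus strand) had MYC of 15.2, H3K4me3 of 57.7 and H3K27ac of 19.2 at its start. The 2 KDM2B peaks of its locus, of fold 3.20 and 2.64, were 35.6 and 36.4 kb further on, in BAHD1, a chromatin gene, and within 1 kb of a start listed for it. MCCC1 (chromosome 3, 183015218 to 183116196, minus strand) has its listed starts inside its record, the first at 183099496. KDM2B stood at 183099122 to 183099478 and MYC, of fold 18.2, at 183098740 to 183100034. Its partner MCCC2 (chromosome 5, 71587340 to 71658706, plus strand) had KDM2B over 180 bp at 71587356 to 71587535 within MYC of fold 16.6. A second acetylated site in MCCC2, 13.7 kb into the gene, had H3K27ac of 10.3 and H3K4me3 of 7.31 without MYC or KDM2B.

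**Figure D3:**
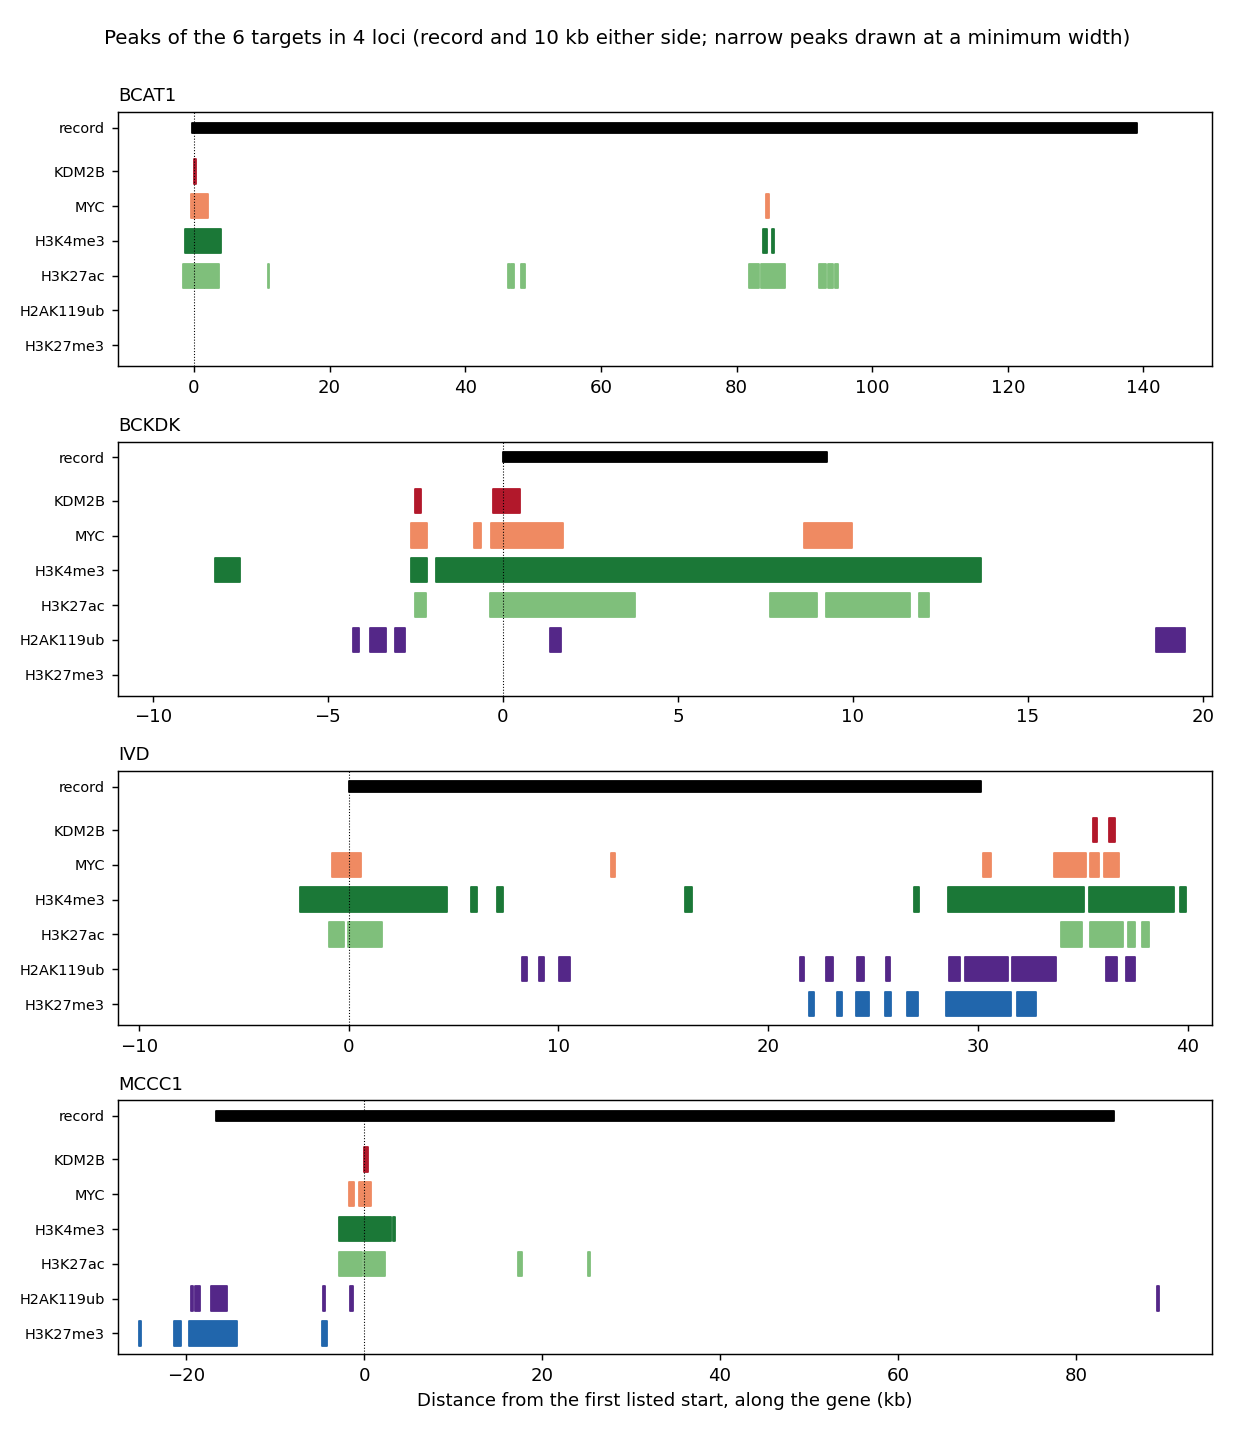
Peaks of each target (colored bars, one row per target) along 4 loci, in kb from the first listed start in the direction of the gene; the black bar is the gene record, and very narrow peaks are drawn at a minimum width. BCAT1 has acetylated sites far inside the gene and no Polycomb peaks, BCKDK lies under 1 H3K4me3 peak, and the Polycomb peaks of IVD and MCCC1 lie away from their starts.

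Polycomb marks were nearly absent from the starts. H3K27me3 was at none of the 10 starts, against 23.7% of all genes, and H2AK119ub at 1, BCAT2, against 38.2%. The BCAT2 call lay at the lower end of its record, the end without KDM2B, and was lost at q under 1e-5. When both ends of each record were used, H2AK119ub was counted at 4 members and H3K27me3 at 2. These 2 were IVD, at its far end, and MCCC1, at the upstream end of its record. No Polycomb mark was at 9 of the 10, against 72.4% of all genes with MYC, H3K4me3 and H3K27ac at a start. Within the whole loci H2AK119ub was found at 6 members (68.0% of all genes) and H3K27me3 at 3 (50.1%). KDM2B was in 7 loci (59.4%), and MYC (78.7%), H3K4me3 (82.6%) and H3K27ac (78.2%) in all 10.

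H2AK119ub covered most at BCKDHA, where 16 peaks took 27.4% of the locus. The median over the members was 1.6% and over all genes 2.36%, with an upper quartile of 19.2%. The strongest of the 16 peaks, with a fold of 3.16, was near B3GNT8, a glycosyltransferase gene 357 bp past the end of BCKDHA. IVD followed with 15.4% and BCAT2 with 8.83%, then BCKDK with 6.32%, MCCC1 with 2.86% and MCCC2 with 0.338%. BCAT1, BCKDHB, DBT and PPM1K had none. H2AK119ub in the locus without KDM2B at the start occurred in BCKDHA and IVD. Their H2AK119ub was not at the start, and a KDM2B peak in the flank of IVD did overlap it. KDM2B at the start with no H2AK119ub in the locus occurred in BCAT1 and PPM1K.

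H3K27me3 covered 11.7% of the IVD locus, 5.69% at MCCC1 and 1.34% at MCCC2. In IVD the largest peak, 3123 bp with a fold of 4.48, ran over the far end of the gene towards BAHD1, 29.7 kb from the start of IVD, and overlapped H2AK119ub. At MCCC1 a peak of 5394 bp with a fold of 5.58, the highest of the 14 H3K27me3 peaks, lay 17.0 kb before the first listed start, at the upper end of the record on the side of LAMP3. It too overlapped H2AK119ub, of fold 3.15. The 3 peaks at MCCC2 had folds of 1.71 to 2.31 and lay in the flank beyond the gene.

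**Figure D4:**
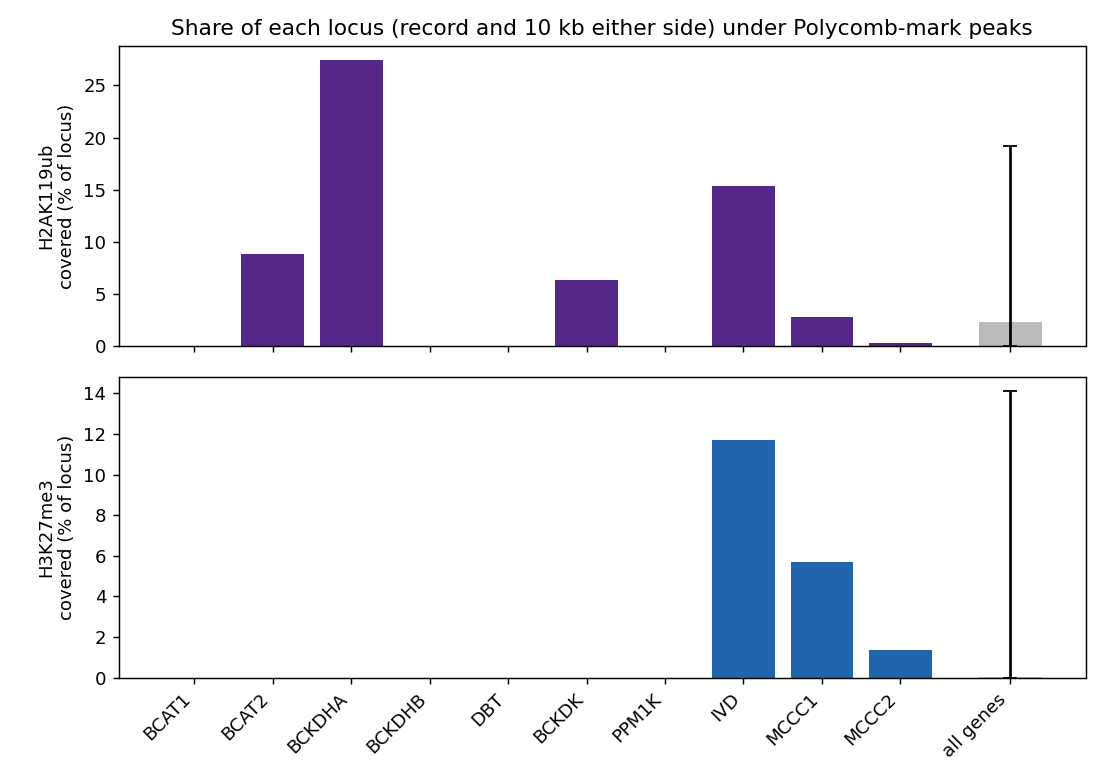
Percent of each locus (gene record and 10 kb either side) under H2AK119ub peaks (top) and H3K27me3 peaks (bottom); the grey bar and whisker at the right are the median and quartiles over all protein-coding genes. BCKDHA reaches 27.4% for H2AK119ub with none for H3K27me3, and 4 members have neither mark.

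The rest of the pathway was described from 17 further genes, enzymes of the later steps, the shared subunit DLD and SLC25A44, the mitochondrial carrier of branched-chain amino acids. MYC, H3K4me3 and H3K27ac were at the start of all 17, as at the 10 members, and KDM2B at 7 of 17, against the 76.0% of all genes with the other 3 targets. Their MYC folds ran from 4.10 at ACAD8 to 29.0 at ACAT1. ACAT1, the mitochondrial thiolase, had the highest KDM2B fold at 7.11, above 97.8% of genes with KDM2B. HIBADH came next among the 17 for both KDM2B and MYC, with MYC of 22.8. HIBADH and HIBCH of the valine branch had KDM2B of 4.42 and 3.74, and ACADSB of the isoleucine branch 3.42. ACAD8 had 3.24. PCCA and PCCB, the 2 subunits of propionyl-CoA carboxylase, had 3.20 and 3.17, so KDM2B was at both subunit genes of this carboxylase as at both of methylcrotonyl-CoA carboxylase. DLD, the E3 subunit that the dehydrogenase shares with other complexes, had MYC of 8.16 and no KDM2B, as BCKDHA, BCKDHB and DBT. Its pattern of MYC, H3K4me3 and H3K27ac alone was that of 2364 genes (11.8%) and in the pathway list also of ECHS1, ALDH6A1, HSD17B10, AUH, MCEE, MMUT and SLC25A44. H3K27me3 was at the start of 1 of the 17, OXCT1, against 23.7% of all genes. Its fold there of 2.32 was above 12.3% of genes with this mark at a start. The OXCT1 pattern of MYC, H3K4me3, H3K27ac and H3K27me3 alone was that of 31 genes (0.155%).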

How the data were processed

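The data were ChIP-seq peak lists in narrow-peak form, 1 per target, from libraries grouped by antibody and cell stock in their titles. Chromatin was digested enzymatically, per the labels' protocols, and libraries were made from 5 ng of DNA for KDM2B, 1 ng for MYC and 50 ng for H3K4me3, H3K27me3, H2AK119ub and input. The submitters' processing notes name build hg38, the peak caller MACS2 2.2.7.1, the aligner Bowtie2 2.4.5, Trim Galore and SAMtools 1.6. The control of each list and any pooling are not given in the sources used here. Narrow-peak calls can split a broad mark into many peaks. Used from the deposited columns were the authors' fold, a ratio over background, the −log10 q-value and the summit position. The authors' deposited score, a whole-number form of the −log10 q-value, and their p-value were not used. The labels do not say whether replicates are separate cultures.

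Gene records and promoter sequences came from RefSeq GRCh38.p14. Starts were listed for 15812 of 19974 genes and 9 of 10 members, and both record ends served for the others. Overlap meant at least 1 bp. Python 3.11.15, NumPy 2.4.6 and pandas 2.3.3 were used, and overlap code was tested on simulated peaks. Members and lists were chosen with earlier results of these data known. All 10 members were named in every result, and of the 17 further genes up to 4 with the highest fold per target, those sharing a member's pattern and those in counts of 5 or fewer; other names were chosen after values were seen. Values of 1 further gene are not reported here. The design foresaw no test, since lists do not resolve libraries. Alternatives were other flanks and windows, stricter peaks, summits, record ends, first listed starts and merged marks.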

Additional observations from a re-analysis of the deposited data

How the results depend on the processing

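MYC, H3K4me3 and H3K27ac stayed at 8 to 10 of the 10 members and KDM2B at 5 or 6 starts under each alternative run: BCAT1 lost KDM2B with q under 1e-5, and MCCC1, whose starts lie inside its record, lost it when record ends were used. Of 97 recomputed values, 87 kept their value, within 1.5 times for counts, exactly for shares of a locus and within 1 SD for summit distances, and 10 moved. With the 15000 peaks of highest fold in each list, H2AK119ub was in 2 loci instead of 6 (BCKDK and IVD), H3K27me3 in 1 instead of 3 (MCCC1), and H2AK119ub at 0 starts. That setting is far stricter for the Polycomb marks: it kept 15000 of 20018 KDM2B peaks, but 15000 of 234493 for H2AK119ub and of 306484 for H3K27me3. With a flank of 25 kb, H3K27me3 was in 5 loci. H2AK119ub was at 3 starts with a window of 2500 bp, at 0 with q under 1e-5 and at 4 when either end of the gene record was used, a setting that gave H3K27me3 at 2. The record-end setting takes in the far ends of genes and, at MCCC1, the upstream end of the record, where both Polycomb marks had peaks. The cause of the other changes was not tested. The median share of a locus under H2AK119ub was 3.30% with peaks within 3 kb of each other merged and 1.15% with a flank of 0 kb. Using the nearest listed start, chosen after seeing the data, moved the median distance of KDM2B and MYC summits to 136 bp, against 158.5 bp. No paired analysis was possible because each target has 1 deposited list, which does not separate its replicates. Depth is unknown, so a missing peak says only that none passed the q limit of 0.05.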
